A study of Homo sapiens with 6 samples.

Results

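The genes described here are 10 genes of the unfolded protein response (UPR), the program that a cell runs when proteins fail to fold in the endoplasmic reticulum (ER). They comprise the sensors ERN1 and ATF6, the transcription factor XBP1, the ER chaperones HSPA5, HSP90B1, HYOU1 and CALR, the oxidoreductase PDIA4, the chaperone partner SDF2L1 and the ER membrane protein HERPUD1. They were chosen by gene symbol, with earlier results of these data known. All 10 were found among the 19470 genes of the count table, and all 10 were among the 13066 genes that passed a filter on low counts and were tested.

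The RNA came from HCCC9810, an established human cholangiocarcinoma (CCA) cell line labelled as wild type. One group of cells received isolinderalactone (ILL), a plant sesquiterpene lactone, at 20 μM for 24 h, and the control group received the vehicle, DMSO, for the same time. Each group had 3 libraries, and nothing in the labels says that they came from separate cultures, so the p-values measure only the spread between these libraries, which may be technical. All of the cells are of 1 line, and both groups share its genotype.

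Between 34282764 and 37758569 reads were counted per library. Pairs of libraries from the same group differed by more than counting error, with a chi-square between 5.09 and 11.5 per degree of freedom over genes. The 10 genes with the most reads took 5.20% to 5.45% of the reads in control libraries and 8.12% to 8.25% in ILL libraries. Of 10 markers of biliary epithelium, 8 had a mean of at least 1 CPM (counts scaled to a common library size, with TMM factors), and the summed level of the list lay between 9174 and 9403 CPM in control libraries and between 9822 and 10460.1 CPM in ILL libraries. The biliary ion channel CFTR was at 0 counts in all 6 libraries. The summed levels of marker lists for other cells were low, at up to 26.0 CPM for hepatocytes, 1.91 CPM for endothelium and 18.4 CPM for fibroblasts. The leukocyte list lay between 37.8 and 42.3 CPM in control libraries and between 113 and 119.0 CPM with ILL. Nearly all of that was CD68, a lysosomal protein, while the leukocyte gene PTPRC did not exceed 0.257 CPM and the T cell gene CD3E did not exceed 0.0858 CPM. The part of these marker levels in the results on UPR genes was not tested.

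The UPR starts at sensors in the ER membrane. ERN1 encodes IRE1α, a kinase and RNase that removes an intron from XBP1 mRNA so that an active transcription factor is made, and ATF6 is cut in the Golgi to release a transcription factor of its own. A further sensor, PERK, slows translation and raises the factor ATF4. XBP1, ATF6 and ATF4 act on genes for chaperones, folding enzymes and ER-associated degradation (ERAD), the route by which misfolded proteins leave the ER for the proteasome. Secretory epithelial cells such as those lining bile ducts carry a large load of proteins through the ER. In gene-level counts the spliced and unspliced forms of XBP1 mRNA are added together, and neither cleavage of ATF6 nor the activity of any sensor is measured.

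UPR factors are known to bind short DNA elements close to the start sites of ER chaperone genes, and these elements are shown first because the 10 genes differ in which one they hold. Promoter sequence was taken from RefSeq (assembly GRCh38.p14), from 250 bases before to 50 bases after each start site, for all 10 genes. XBP1 and PDIA4 have 2 such promoters each, and the searches covered both strands. The ER stress element, searched as CCAAT, then 9 bases of any kind, then CCACG, was found for 4 of the 10 genes. It occurred in 0.0769% of all 35116 promoters. In the following stretches, written from 5′ to 3′ on the strand of the gene, capitals mark the letters of the element, which read CGTGG and then ATTGG where the match lies on the opposite strand.
HSPA5, chr9:125241386-125241414, minus strand: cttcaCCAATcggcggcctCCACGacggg
XBP1, chr22:28800598-28800626, minus strand: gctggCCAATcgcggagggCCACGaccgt
HSP90B1, chr12:103930211-103930239, plus strand: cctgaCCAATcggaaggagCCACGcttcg
HSP90B1, chr12:103930316-103930344, plus strand: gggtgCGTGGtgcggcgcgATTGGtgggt
CALR, chr19:12938379-12938407, plus strand: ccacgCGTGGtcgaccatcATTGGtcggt

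The element lay close to the start site in HSPA5, at positions -66 to -48, and in XBP1, at -52 to -34. HSP90B1 held it at -194 to -176 and again, on the opposite strand, at -89 to -71. In CALR it lay farthest out, at -225 to -207, also on the opposite strand.

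The ER stress element II, searched as ATTGG, then 1 base of any kind, then CCACG, was found for 3 other genes of the 10 and in 0.0541% of all promoters. Capitals again mark the element. In HERPUD1 they also mark a match to TGATGNAA, the core bound by ATF4 together with CHOP, which lies on the opposite strand. In the first stretch of HYOU1 they mark a match to TGACGTGG, a core bound by XBP1 and ATF6, whose last bases are also the first of the ER stress element II on the opposite strand.
HERPUD1, chr16:56931961-56932040, plus strand: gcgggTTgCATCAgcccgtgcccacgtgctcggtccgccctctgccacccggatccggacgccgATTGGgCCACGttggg
SDF2L1, chr22:21642109-21642129, plus strand: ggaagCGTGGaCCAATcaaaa
HYOU1, chr11:119057375-119057398, minus strand: ccccgTGACGTGGtCCAATcccag
HYOU1, chr11:119057269-119057289, minus strand: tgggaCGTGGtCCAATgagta

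HERPUD1 was the only one of the 10 genes with the ATF4 and CHOP core in its window, at -176 to -169, with the ER stress element II at -117 to -107. That core was found in 3.62% of all promoters. SDF2L1 held the ER stress element II at -188 to -178 and HYOU1 held it at -185 to -175 and at -79 to -69. The core bound by XBP1 and ATF6 was found in 0.729% of all promoters and among the 10 genes in HYOU1 alone, at -188 to -181. The promoters of PDIA4, ERN1 and ATF6 held no match to any of the whole elements, which says only that these letters are not in these windows. The 5 letters CCACG alone were found for 8 of the 10 genes, but also in 38.1% of all promoters. A match is a description of the sequence and not a measured binding site.

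In gene annotation (GENCODE 29, GRCh38), most of these stretches lie just upstream of their genes, outside the annotated span. HSP90B1 (chr12:103930107-103953645, plus strand) is the exception, since its annotated span begins before both of its elements. HSPA5 occupies chr9:125234853-125241330 on the minus strand and XBP1 occupies chr22:28794555-28800597 on the minus strand. CALR lies at chr19:12938578-12944489 on the plus strand and HERPUD1 at chr16:56932048-56944863 on the plus strand. SDF2L1 lies at chr22:21642261-21644298 on the plus strand and HYOU1 at chr11:119044189-119057202 on the minus strand. The genes without a whole element are PDIA4 at chr7:149003062-149028641 and ERN1 at chr17:64039142-64130819, both on the minus strand, and ATF6 at chr1:161766294-161964070 on the plus strand.

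Both sensors and XBP1 rose with ILL. ERN1 was at 15.8, 13.97 and 15.9 CPM in the control libraries and at 38.2, 37.9 and 39.4 CPM in the ILL libraries. The groups did not overlap and the ILL libraries lay close together. The mean went from 15.2 ± 1.08 to 38.5 ± 0.790 CPM (SD, n = 3 in each group), a log2 fold change of 1.34 with a standard error (SE) of 0.08 (95% interval 1.17 to 1.51, adjusted p = 2.1e-13 by the quasi-likelihood test of edgeR). In this bulk RNA a change in every cell and a change in the share of cells that express a gene, or in RNA per cell, cannot be told apart. ATF6 was at 57.4, 53.3 and 60.1 CPM in control libraries and at 90.5, 92.7 and 97.8 CPM with ILL. All ILL libraries were above all controls, by a smaller factor than for ERN1. The log2 fold change of ATF6 was 0.72 (SE 0.06, 95% interval 0.59 to 0.85, edgeR adjusted p = 1.7e-10). XBP1, the factor whose mRNA IRE1α splices, was at 141, 145 and 139.9 CPM in control libraries and at 342, 319.6 and 335 CPM with ILL. The groups were far apart relative to their spread, and the log2 fold change was 1.23 (SE 0.05, 95% interval 1.12 to 1.33, edgeR adjusted p = 9.9e-17). The intervals of ERN1 and XBP1 overlapped each other, and both lay above the interval of ATF6.

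Of the chaperones, HSPA5 and HYOU1 rose more than HSP90B1, and CALR did not pass the test. HSPA5 encodes BiP, the main HSP70-type chaperone of the ER, which also binds the sensors. It was at 380.3, 379 and 405 CPM in control libraries and at 744, 791 and 736 CPM with ILL. The groups did not overlap, and the mean went from 388 ± 14.5 to 757 ± 29.9 CPM (SD, n = 3). The log2 fold change was 0.96 (SE 0.05, 95% interval 0.86 to 1.07, edgeR adjusted p = 8.5e-15), a fold of 1.95. HYOU1, an HSP70-related protein that exchanges the nucleotide bound by BiP, was at 119, 114 and 128 CPM in control libraries and at 164, 186 and 160.3 CPM with ILL. Its groups did not overlap either, and ILL replicate 2 was the highest among those treated. HYOU1 had a log2 fold change of 0.50 (SE 0.06, 95% interval 0.37 to 0.62, edgeR adjusted p = 8.3e-08).

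HSP90B1, the HSP90-type chaperone of the ER, was at 605, 617 and 629 CPM in control libraries and at 711, 758 and 734 CPM with ILL. The groups did not overlap although the change was small, with a log2 fold change of 0.25 (SE 0.05, 95% interval 0.15 to 0.35, edgeR adjusted p = 4.1e-05). CALR encodes calreticulin, a calcium-binding chaperone of newly made glycoproteins. It was at 1099.8, 1125 and 1188 CPM in control libraries and at 1097, 1178 and 1102 CPM with ILL, and the groups overlapped almost completely. The log2 fold change of CALR was -0.01 (SE 0.05, 95% interval -0.11 to 0.08, edgeR adjusted p = 0.791), and its sign changed when single libraries were left out. PDIA4, which forms and reshuffles disulfide bonds in folding proteins, was at 247, 252 and 278 CPM in control libraries and at 255, 281 and 248 CPM with ILL. Here too the groups overlapped. The log2 fold change of PDIA4 was 0.01 (SE 0.06, 95% interval -0.11 to 0.13, edgeR adjusted p = 0.851), with a sign that also depended on the scaling and on single libraries. For both genes the interval leaves out changes of the size seen for HYOU1 or HSPA5.

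SDF2L1 was the only one of the 10 genes that fell, while HSPA5, the gene of BiP, rose. The protein keeps BiP clients from aggregating, together with a BiP co-chaperone of the J-domain family. SDF2L1 was at 65.3, 68.5 and 65.0 CPM in control libraries and at 34.05, 40.2 and 34.2 CPM with ILL, so that each ILL library was below each control library. The mean was 66.3 ± 1.98 CPM in control libraries and 36.1 ± 3.47 CPM with ILL (SD, n = 3). SDF2L1 fell by 0.87 on the log2 scale (SE 0.07, 95% interval -1.02 to -0.73, edgeR adjusted p = 5.5e-11), to 0.545 of its control level.

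HERPUD1 had the largest change of the 10 genes. Its product sits in the ER membrane and helps to assemble the ERAD ubiquitin ligase complex. HERPUD1 was at 34.7, 36.5 and 35.5 CPM in control libraries and at 189, 191 and 187 CPM with ILL. The gap between the groups was many times the spread within them, with means of 35.5 ± 0.914 and 189 ± 2.13 CPM (SD, n = 3). The log2 fold change was 2.41 (SE 0.06, 95% interval 2.29 to 2.53, edgeR adjusted p = 2.1e-21), a fold of 5.31. It was higher than the log2 fold changes of 97.7% of the 13066 genes tested.

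Counted together, 8 of the 10 genes passed the test in either direction, where 73.1% of all genes tested did, so that count is close to the background and is no result about these genes. The directions were less even, but the 10 genes were chosen with earlier results of these data known. The shares that follow are therefore descriptions and no test of these genes. Of the 10 genes, 7 rose, against 36.2% of all genes tested, and 1 fell, against 36.9%. Differentially expressed genes (DEGs), which had to show a fold change above 2 or below 0.5 as well, were ERN1, XBP1 and HERPUD1. These 3 of 10 stand beside 12.5% of all genes for DEGs with higher levels. None of the 10 genes was a DEG with a lower level by edgeR or by DESeq2, against 11.4% of all genes by edgeR. SDF2L1 was the 1 gene of the 10 that was lower at an edgeR adjusted p under 0.05 without the fold requirement. HSPA5, at a fold of 1.95, lay just under the fold requirement. The CPM of the groups did not overlap for 8 of the 10 genes, again close to the 75.4% of all genes tested. The median log2 fold change was 0.61 over the 10 genes and -0.0012 over all genes tested.

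**Figure D1:**
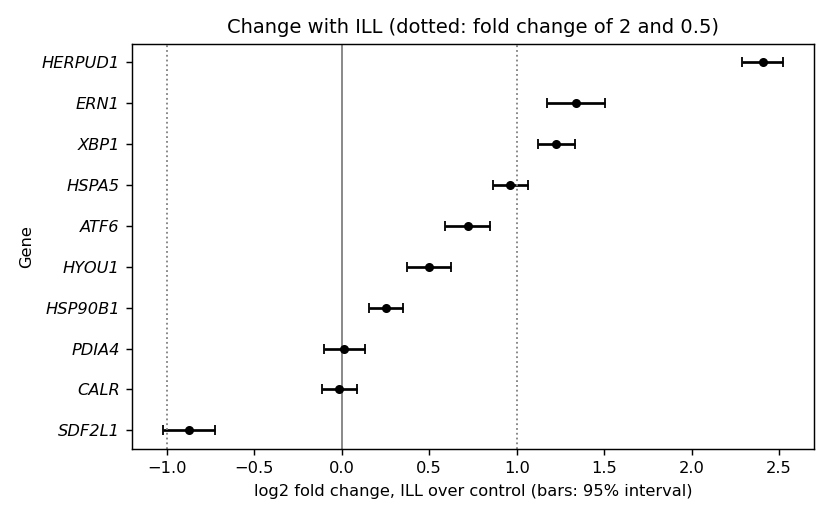
Log2 fold change of ILL against control for the 10 UPR genes, as points with 95% intervals from edgeR, with a solid line at 0 and dotted lines at fold changes of 2 and 0.5. HERPUD1 stands apart at 2.41, ERN1 and XBP1 follow at 1.34 and 1.23, the intervals of PDIA4 and CALR include 0, and SDF2L1 is at -0.87.

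Within each group the same library was often the highest for several of the 10 genes. In the control group replicate 3 was the highest library for 7 genes, namely HSPA5, HSP90B1, CALR, PDIA4, ERN1, ATF6 and HYOU1. In the ILL group replicate 2 was the highest for 7 genes, which were HSPA5, HSP90B1, CALR, PDIA4, HERPUD1, SDF2L1 and HYOU1. HSPA5, HSP90B1, CALR, PDIA4 and HYOU1 were thus highest in control replicate 3 and also in ILL replicate 2, which do not share a replicate number. Over 9233 genes the deviations of these libraries from their group means had a correlation of 0.196, so the pattern is not particular to the 10 genes. The share of all genes tested that was highest in these libraries was not counted. Leaving out any 1 library changed no call on the 10 genes.

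Set beside the elements printed above, the changes differed widely between genes that hold the same element. Of the 4 genes with the ER stress element, XBP1 rose by 1.23 on the log2 scale, HSPA5 by 0.96 and HSP90B1 by 0.25, while CALR was at -0.01. The carriers of the ER stress element II held both extremes of the 10 genes, with HERPUD1 at 2.41 and SDF2L1 at -0.87, and HYOU1 between them at 0.50. Among the genes with no whole element in their windows, ERN1 and ATF6 rose by 1.34 and 0.72 and PDIA4 was at 0.01. HERPUD1, the one gene with the ATF4 and CHOP core, was also the one with the largest change. The changes of other genes with this core were not examined, and a link between core and change was not tested.

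In all promoters, 21 other gene symbols held the ER stress element, and 12 of them were tested. Of these, 5 rose, 2 fell and 5 did not pass the test, with a median log2 fold change of 0.17 and no DEG by edgeR, although 7 passed the adjusted p alone. These 5 of 12 that rose are close to the 36.2% of all genes tested. The highest of those that rose were SYNPO at 0.89, FICD, the enzyme that attaches AMP to BiP, at 0.87, and TMEM120A at 0.70. FICD was at a low level, from 2.75 ± 0.149 to 5.04 ± 1.36 CPM (SD, n = 3). SERP1, a protein of the translocon, rose by 0.39. PDIA6, a disulfide isomerase, rose by 0.17, a call lost with library size only and with limma on log2(FPKM + 1). CRELD2, an ER protein induced by stress, fell by 0.19, a call lost without control replicate 3 or ILL replicate 3, and the zinc finger gene ZNF17 fell by 0.46. The ER stress element II was held by 16 other symbols, 11 of them tested, of which 5 rose and 5 fell, with a median of -0.25, beside 36.2% and 36.9% of all genes tested. NAV2 rose by 1.10 and was the only DEG with a higher level among them. NUCB1, a calcium-binding protein, rose by 0.81, CNKSR1 by 0.80, PLS3 by 0.67 and GYS1 by 0.35. In contrast, SHCBP1, which encodes a partner of the adaptor SHC, fell by 2.84 and RUVBL2, a chromatin ATPase, fell by 1.28. The genes named here were chosen after their values were seen.

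Levels of different genes can be set side by side only per length, for which the deposited FPKM values, fragments scaled by gene length and by the size of the library, were used. CALR had the highest level in control libraries, at 613 ± 21.6 FPKM (SD, n = 3), followed by HSP90B1 at 227 ± 3.38 and HSPA5 at 101 ± 3.35. PDIA4 at 94.99 ± 5.67 overlapped HSPA5, and XBP1 at 80.0 ± 1.70 overlapped SDF2L1 at 82.2 ± 2.57 FPKM when ranges over libraries were compared. Within each control library, however, HSPA5 was above PDIA4 and SDF2L1 was above XBP1. HYOU1 at 26.1 ± 1.39, HERPUD1 at 12.8 ± 0.316, ATF6 at 7.39 ± 0.426 and ERN1 at 1.43 ± 0.1002 FPKM were each apart from their neighbours. The sensors were thus the genes with the lowest levels, and the chaperones CALR, HSP90B1 and HSPA5 had the highest means.

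With ILL the order changed in its middle. CALR at 578 ± 20.0, HSP90B1 at 258 ± 6.73 and HSPA5 at 188 ± 6.55 FPKM (SD, n = 3) kept the first 3 places, and ATF6 at 11.6 ± 0.444 and ERN1 at 3.45 ± 0.0762 FPKM kept the last. XBP1 went from place 6 to place 4, at 179 ± 7.22 FPKM, where its libraries overlapped those of HSPA5. HERPUD1 went from place 8 to place 6 at 64.5 ± 0.626 FPKM, and SDF2L1 from place 5 to place 7 at 42.7 ± 3.87 FPKM. PDIA4 went from place 4 to place 5 at 91.3 ± 5.55 FPKM, and HYOU1 from place 7 to place 8 at 35.1 ± 2.65 FPKM.

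The FPKM of the 10 genes summed to 1246 ± 32.7 in control libraries and to 1451 ± 37.4 with ILL (SD, n = 3). CALR made up 49.2% ± 0.445 of this sum in control libraries and 39.8% ± 0.354 with ILL. HSPA5 went from 8.13% ± 0.114 to 12.98% ± 0.130 and XBP1 from 6.43% ± 0.266 to 12.3% ± 0.787. HERPUD1 took 1.02% ± 0.0352 of the sum in control libraries and 4.45% ± 0.0970 with ILL, while SDF2L1 went from 6.61% ± 0.315 to 2.94% ± 0.188. As a share of the pool, the chaperone that binds the sensors and the factor XBP1 thus gained while calreticulin and SDF2L1 lost. These shares are descriptions, and they add up to the whole within a library, so that a gain of 1 gene lowers the others.

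Ratios within a library show the same changes without any scaling between libraries. The ratio of HSPA5 to HSP90B1 in FPKM was 0.446 ± 0.0104 in control libraries and 0.732 ± 0.0173 with ILL (SD, n = 3), and that of HSPA5 to CALR was 0.165 ± 0.00213 and 0.326 ± 0.00249. Both compare BiP with an abundant chaperone of another type. The ratio of HERPUD1 to SDF2L1 was 0.154, 0.154 and 0.158 in the control libraries and 1.60, 1.37 and 1.58 in the ILL libraries. HERPUD1 was thus the lower of this pair in all 3 control libraries and the higher in all 3 ILL libraries, a 9.78-fold change of the mean ratio. The sensors also moved unequally, with ERN1 at 0.194 ± 0.00491 of ATF6 in control libraries and 0.298 ± 0.00684 with ILL.

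Partners and targets of these genes were described with lists set by function, also with earlier results of these data known. Their shares beside the background are likewise descriptions and no test. Of 108 other genes tested in these lists, 63 rose, 24 fell and 21 did not pass the test, with a median log2 fold change of 0.25. Over all genes tested, 36.2% rose and 36.9% fell. The share that rose lay nearer to this background for the sensor partners, the lectin cycle, the oxidoreductases, ER translocation and the IRE1 targets than for the PERK branch, the BiP co-chaperones, ERAD and ER calcium. Of 8 genes that work beside the sensors, 4 rose and 3 fell. Both the ATF6 homologue ATF6B, at a log2 fold change of 0.75 (SE 0.05), and EIF2AK3, the gene of PERK, at 0.56 (SE 0.10), rose. ERN2, the epithelial homologue of ERN1, rose by 2.07 (SE 0.31) from 1.02 ± 0.299 to 4.29 ± 1.39 CPM (SD, n = 3), a low level in both groups. RTCB, the ligase that joins the ends of spliced XBP1 mRNA, fell by 0.31 (SE 0.06), and TRAF2, an adaptor that binds IRE1α, fell by 0.96 (SE 0.10). EIF2S1, the translation factor that PERK phosphorylates, fell by 0.88 (SE 0.05). The site-1 protease MBTPS1, which cuts ATF6, rose by 0.37 (SE 0.06).

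Of 10 tested genes for co-chaperones of BiP and other HSP70-related ER proteins, 8 rose and 1 fell, with a median of 0.39. DNAJB9, a J-domain protein that returns IRE1α to its resting state, was at 14.8, 15.99 and 12.3 CPM in control libraries and at 52.7, 47.6 and 49.8 CPM with ILL. It rose by 1.80 (SE 0.09). HSPA13, an HSP70-related protein of the ER, rose by 1.08 (SE 0.07), from 54.1 ± 2.96 to 114 ± 11.5 CPM (SD, n = 3), and DNAJC10, a J-domain reductase, rose by 0.77 (SE 0.05). DNAJC3, which also inhibits PERK, rose by 0.48 (SE 0.05) and MANF, which binds BiP, rose by 0.21 (SE 0.06). DNAJB11, the J-domain partner of SDF2L1, was at 129.9, 129 and 128 CPM in control libraries and at 111, 113 and 119 CPM with ILL. It fell by 0.17 (SE 0.05), so that both members of this pair were lower with ILL, DNAJB11 by much less than SDF2L1. CDNF was not tested because of low counts.

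Of 8 genes of the lectin cycle, in which calreticulin, calnexin and their partner PDIA3 fold glycoproteins, 2 rose, 2 fell and 4 did not pass the test. PDIA3 rose by 0.24 (SE 0.05). GANAB, a subunit of glucosidase II, fell by 0.24 (SE 0.05) and the glucosyltransferase gene UGGT2 fell by 0.19 (SE 0.06), although without ILL replicate 3 it did not pass the test (edgeR adjusted p = 0.0589). CANX, the gene of calnexin and the membrane-bound relative of CALR, had a log2 fold change of 0.09 (SE 0.04) and did not pass the test by edgeR (adjusted p = 0.077). It passed in 3 of 15 alternatives, which were DESeq2 (adjusted p = 0.0146) and edgeR with DESeq2 size factors (adjusted p = 0.0496) or a minimum of 10 counts (adjusted p = 0.0488). The calnexin relative CLGN rose by 3.10 (SE 0.46) but stayed at or below 1.80 CPM in all libraries. It had 8, 8 and 6 counts in the control libraries and passed the filter on low counts only through the ILL libraries.

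The 18 ER oxidoreductases, to which PDIA4 belongs by function, split into 9 that rose, 8 that fell and 1 that did not pass the test. P4HB, the founding protein disulfide isomerase, rose by 0.48 (SE 0.05), from 972 ± 69.5 to 1352 ± 52.9 CPM (SD, n = 3), and ERO1A, which oxidises it, rose by 0.56 (SE 0.05). CRELD1 rose by 1.24 (SE 0.13) and TXNDC11 by 0.61 (SE 0.06). TXNDC5 fell by 0.65 (SE 0.05), and the membrane-bound thioredoxin-like genes TMX1 and TMX2 fell by 0.67 (SE 0.08) and 0.64 (SE 0.05).

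Of 23 tested ERAD genes other than HERPUD1, 15 rose, 4 fell and 4 did not pass the test, with a median of 0.25. The ligase SYVN1, with which HERPUD1 assembles, rose by 0.91 (SE 0.06) from 57.1 ± 1.76 to 107 ± 7.16 CPM (SD, n = 3). SEL1L, its scaffold, rose by 0.79 (SE 0.05), and the lectins OS9 and ERLEC1 rose by 0.78 (SE 0.06) and 0.82 (SE 0.06). EDEM1, which trims the sugars of misfolded glycoproteins, rose by 0.96 (SE 0.06) and the ubiquitin-conjugating enzyme UBE2J1 by 0.91 (SE 0.05). EDEM2, a relative of EDEM1 and the only DEG of the list, rose by 1.12 (SE 0.33) at a low level, from 1.10 ± 0.262 to 2.38 ± 0.427 CPM. Another conjugating enzyme, UBE2G2, fell by 0.95 (SE 0.06), from 86.7 ± 4.61 to 45.01 ± 2.15 CPM. UBE2J2 and FAF2 fell by 0.24 (SE 0.07) and 0.14 (SE 0.06). Without ILL replicate 3, 2 and not 4 genes of this list fell, and UBE2J2 and FAF2 did not pass the test. None of these genes changed as much as HERPUD1, which at 2.41 was above the log2 fold change of every other ERAD gene tested. DERL3, at 0 counts in all 6 libraries, was not tested.

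Of 12 genes in the list for the PERK branch, 11 rose and 1 fell, and 9 of the 11 were DEGs. These are RNA levels, and the part of PERK in them was not tested. ATF4 rose by 1.74 (SE 0.05), from 275 ± 7.43 to 919 ± 37.6 CPM (SD, n = 3), and DDIT3, the gene of CHOP, rose by 2.62 (SE 0.10), from 6.15 ± 0.538 to 37.7 ± 0.580 CPM. CHAC1, a glutathione-degrading enzyme, rose by 4.29 (SE 0.11) and the pseudokinase gene TRIB3 by 3.07 (SE 0.07). ATF3 rose by 3.42 (SE 0.13) and SESN2 by 2.91 (SE 0.08). ATF5, another factor of this list, fell by 0.54 (SE 0.08). NUPR1, a small stress-induced nuclear protein, had 1 count in each control library and 27, 62 and 60 counts with ILL, so its fitted log2 fold change, the highest of the list, depends on the prior count. NUPR1 passed the filter on low counts only through the ILL libraries, and it is among the 11 genes and the 9 DEGs. With at least 10 counts required in every library, which leaves NUPR1 out, 10 genes of the list rose. The median of this list, NUPR1 included, was 2.18, beside 0.61 for the 10 genes described above.

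For transport into the ER, 7 of 16 genes rose, 3 fell and 6 did not pass the test, and no gene passed the fold requirement by edgeR. The translocon channel gene SEC61A1 rose by 0.30 (SE 0.05) and the signal receptor subunit SRPRB fell by 0.57 (SE 0.07). SEC11C, a signal peptidase subunit, rose by 0.72 (SE 0.08), while SEC11A and SPCS1, of the same enzyme, fell by 0.30 (SE 0.06) and 0.37 (SE 0.07). TRAM1, a translocon protein, rose by 0.62 (SE 0.06). Of 10 genes for ER calcium, 6 rose, with STC2 at 2.69 (SE 0.07) and the calcium pump gene ATP2A2 at 0.46 (SE 0.05), while TMCO1 fell by 0.14 (SE 0.06), a call lost in 8 of 15 alternatives. The calcium pump gene ATP2A3 rose by 1.94 (SE 0.30) at a low level, from 0.899 ± 0.185 to 3.48 ± 0.463 CPM (SD, n = 3), and the calcium regulator WFS1 rose by 0.72 (SE 0.08). Of 3 known targets of the RNase of IRE1α, SCARA3 fell by 1.64 (SE 0.24), COL6A1 rose by 0.92 (SE 0.08), and BLOC1S1 was at 48.4 ± 2.64 and 48.4 ± 2.51 CPM (SD, n = 3) and did not pass the test (edgeR adjusted p = 0.988). These 3 transcripts thus did not share a direction while ERN1 was higher.

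Reads from some of these genes can be shared with neighbours, in part because the strand setting of the counting is not given in the sources used here. HSP90B1 overlaps C12orf73 on the opposite strand over 121 of its 4695 exonic bases, and C12orf73 had between 152 and 357 counts per library, against at least 21673 for HSP90B1. HSP90B1 also overlaps the microRNA gene MIR3652 on the same strand over 131 bases, which a strand setting would not separate. The pseudogene TTC41P overlaps it on the opposite strand over 105 bases, and neither of these was in the count table. An antisense transcript covers 270 of 2714 exonic bases of CALR, and another covers 666 of 7694 exonic bases of HYOU1, and reads from these cannot be told apart from reads of their partners. The other 7 genes share no exonic base with another annotated gene.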

How the data were processed

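Total RNA from HCCC9810 cells was extracted with TRIzol and sequenced as mRNA on an Illumina instrument, with 3 control and 3 ILL libraries. The authors deposited raw counts per gene symbol and, in a separate table, FPKM, counts scaled by gene length and library depth. The labels name GRCh38 and DESeq2, and the aligner, counter and strand setting are not given in the sources used here. Library totals were 34282764 to 37758569 counts.

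The counts were tested with edgeR 4.0.16 (R 4.3.3) by the quasi-likelihood test with TMM scaling and its own filter on low counts, and p-values were Benjamini-Hochberg adjusted over 13066 genes. "Rose" and "fell" mean an adjusted p under 0.05, and a DEG also has a fold change above 2 or below 0.5. CPM are TMM scaled. Levels between genes were compared on FPKM. Alternatives were DESeq2 1.42.0 and its size factors, library size only, other filters, limma 3.58.1 on log2(FPKM + 1) and log2(FPKM + 0.1) with or without a mean FPKM of at least 1, the replicate number as a block, and each library left out. On simulated data with 200 of 13066 genes changed, 100% of genes with a log2 change of size 1 or 2 were called and 0.0704% of the unchanged ones. Changes were set only in genes above low levels, as many up as down, with the same spread setting for all genes. In the real data 73.1% of genes passed the test, so the simulated shares do not give the power or error there.

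The 10 genes and the gene lists were chosen with earlier results of these data known. Named from each list were at most 3 genes with the highest and 3 with the lowest log2 fold change that passed the test, had a mean of at least 1 CPM and did not overlap between groups, and for HSPA5 and HERPUD1 the 3 most similar genes. DNAJC3, MANF, MBTPS1, SYVN1, SEL1L, OS9, ERLEC1, P4HB, ATF4, DDIT3, SESN2, ATP2A2, TMCO1, BLOC1S1, CLGN, CANX, NUPR1, CDNF and DERL3 were named after their values were seen. Gene positions are from GENCODE 29 and promoters from RefSeq (GRCh38.p14), with symbols matched for all 10 genes. Protein sequences were not analysed here.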

Additional observations from a re-analysis of the deposited data

How the results depend on the processing

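In all 15 alternatives run (other normalizations, filters, DESeq2, limma on FPKM, the replicate block and each library left out), 7 of the 10 UPR genes rose, 1 fell and none was a DEG with a lower level. The DEGs with higher levels numbered 3, or 2 with limma on log2(FPKM + 1), where ERN1 was at 0.87. Filters left some genes out of some alternatives, and CLGN was in 12 of the 15. For 8 of the 10 genes, direction and call held in each alternative that included the gene. The same was true of 73 of 87 other genes that were followed, some of which are not named here. The exceptions among the 10 never passed the test. Without single libraries CALR lay between -0.0487 and 0.0156 and PDIA4 between -0.0415 and 0.0647, and PDIA4 was at -0.0565 with library size only, at -0.0561 with limma on log2(FPKM + 1), with or without the filter, and at -0.0566 with log2(FPKM + 0.1). Without single libraries ALG12 lay between -0.271 and 0.0754 and BLOC1S1 between -0.0363 and 0.0420, and BLOC1S1 was at 0.00938 with DESeq2 size factors, 0.0111 with a minimum of 10 counts per library and 0.00575 with DESeq2. With limma on FPKM and a filter, 1 lectin cycle gene rose instead of 2 and 0 of the IRE1 targets fell instead of 1, at either pseudocount, since CLGN and SCARA3 lay under the mean FPKM minimum of 1. Without single libraries, 1 to 2 lectin cycle genes, 2 to 4 ERAD genes and 0 to 1 ER calcium genes fell, the lowest counts coming without ILL replicate 3 for the first pair of lists. Of the ERAD genes, 15 rose, but 11 with library size only or with unfiltered limma and 10 with filtered limma. CANX passed the test with DESeq2, DESeq2 size factors and the minimum of 10 counts, and PDIA6 failed it with library size only and filtered log2(FPKM + 1). The ER calcium count, TMCO1, was 0 with DESeq2 size factors, at least 10 counts, DESeq2, the replicate block and limma on unfiltered log2(FPKM + 1). Without control replicate 3 or ILL replicate 3, 1 and not 2 of the other genes with the ER stress element fell. The letters CCACG alone, in place of the whole element, were held by 8 of the 10 genes and not 4. Otherwise the cause of these shifts was not tested.

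Same-numbered libraries did not deviate together from their group means, with correlations of 0.0562, -0.0783 and -0.143 over 9233 genes, so the numbers were not taken to pair the libraries. With the replicate block 7 of the 10 genes rose and 1 fell, as without it. Counting error is small at this depth for the 10 genes, of which the lowest, ERN1, had at least 491 counts per library, and the number of libraries limits the precision.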

Other observations

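Across the 6 libraries, the genes whose levels followed those of HSPA5 most closely were not ER chaperone genes. Among 9223 genes with a mean of at least 10 CPM, compared on log2 CPM centred on each gene's own mean, the nearest to HSPA5 was PXDC1, with a root mean square difference of 0.0200 and a log2 fold change of 0.95. NRCAM, a cell adhesion molecule, followed at 0.0216 and a log2 fold change of 0.94, and GPR153, an orphan receptor, followed at 0.0233 and 0.94. The nearest of the other UPR genes was ATF6, at a root mean square difference of 0.137.

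For HERPUD1 the nearest gene was HSPB1, a small heat shock protein of the cytosol, with a root mean square difference of 0.0229 and a log2 fold change of 2.43. HSPB1 went from a mean of 312 CPM to 1678 CPM. ABHD4 followed at 0.0357 and IRAK2, a kinase of interleukin signalling, at 0.0454. ERN1, the nearest of the other UPR genes, lay at 0.540. With 6 libraries in 2 groups such likeness rests mostly on the difference between the groups.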
